A study of Mus musculus with 13 samples.

Results

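Tumours grown from 4T1OE cells, a transduced line of the mouse mammary carcinoma 4T1 that overexpresses NLRX1, were compared with tumours grown from untransduced parental 4T1 cells. The members were all arrays labelled with either line, 4 for 4T1OE and 4 for parental tumours, or 8 of the 13 arrays of the series. Each line had been injected into 1 mammary fat pad of WT BALB/c mice or of Nlrx1-/- mice, with 2 arrays for each pair of line and host, and the tumours were flash frozen at collection. Host genotype was therefore a covariate, and all differences are averaged over both hosts unless a host is named. The remaining tumour arrays, 4 from a transduced control line (4T1OE-CTL, 2 for each host), entered the estimates of spread and host effect. Every array held RNA pooled from tumours, so each replicate was a pool, and p-values measure only the spread between these pools. The number of tumours per pool, the age of the mice, the promoter that drives the transgene, the species of the construct and whether the line was 1 clone were not given in the sources used here. Parental cells had not been transduced, so NLRX1 overexpression, transduction and any other difference between the lines cannot be told apart in this comparison.

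The array service had advised leaving out 1 parental array, replicate 1 of the Nlrx1-/- hosts. It stood apart in the values too, with a median correlation of 0.896 with the other tumour arrays, where the other 11 had 0.958 to 0.981, and with a standard deviation (SD) of its values of 2.53. The results below rest on 3 parental arrays, 2 from WT and 1 from Nlrx1-/- hosts. The main counts of calls and several list medians are also given with that array. The 4T1OE arrays had SDs of 3.09 to 3.12, against 2.89 to 3.07 on the 3 parental arrays, and a fit with this SD as a covariate was run as an alternative. Lymph node stroma markers, 7 measured, stood apart on 1 4T1OE array, replicate 1 of the Nlrx1-/- hosts, at 4.69 above their medians over the fitted arrays, whereas the other 3 4T1OE and the 3 parental arrays lay between -0.32 and 0.00. The parental array left out and Nlrx1-/- 4T1OE-CTL replicate 1 were also high, at 4.14 and 5.94, and a fit without the latter and the 4T1OE array was run as a further alternative, chosen after seeing the data. In pooled tumour RNA, fewer cells of a type and less RNA per cell cannot be told apart.

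NLRX1 is a member of the NOD-like receptor family that resides at mitochondria, where it is known to dampen antiviral signalling through MAVS and inflammatory signalling through NF-kB, and to affect reactive oxygen species and autophagy. Its role in tumours has been described as depending on the cell type that carries it. The parental 4T1 line has an epithelial character, with claudins and EpCAM, the adhesion molecule encoded by Epcam, at cell junctions. A difference between 4T1OE and parental tumours may lie in the injected cells, in the host cells within the tumour or in both, and these arrays do not separate them.

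Nlrx1 itself was examined first, since it checks the labels. On the log2 scale, where a difference of 1 is a ratio of 2 between signals, the 3 parental arrays read 6.14, 7.13 (WT) and 6.60 (Nlrx1-/-), and the parental array left out read 6.75. The 4T1OE arrays read 10, 9.31 (WT), 9.93 and 10.67 (Nlrx1-/-). All 4 4T1OE arrays lay above all parental arrays, with no overlap. The fitted difference was 3.37 (SE 0.37; limma, Benjamini-Hochberg adjusted p = 0.00299), and an exact two-sided permutation test over the 7 arrays gave p = 0.0286, the smallest its 35 splits can give. With the parental array advised against included, the difference was 3.33 (limma, adjusted p = 0.00246). Nlrx1 was 6.59 ± 0.50 (SD, n = 4) in 4T1OE-CTL tumours and 6.62 ± 0.50 (SD, n = 3) in parental tumours. The WT and Nlrx1-/- hosts differ in their own Nlrx1 gene, but the injected cells carry theirs in either host, and Nlrx1 was detected above the negative controls in both.

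**Figure D1:**
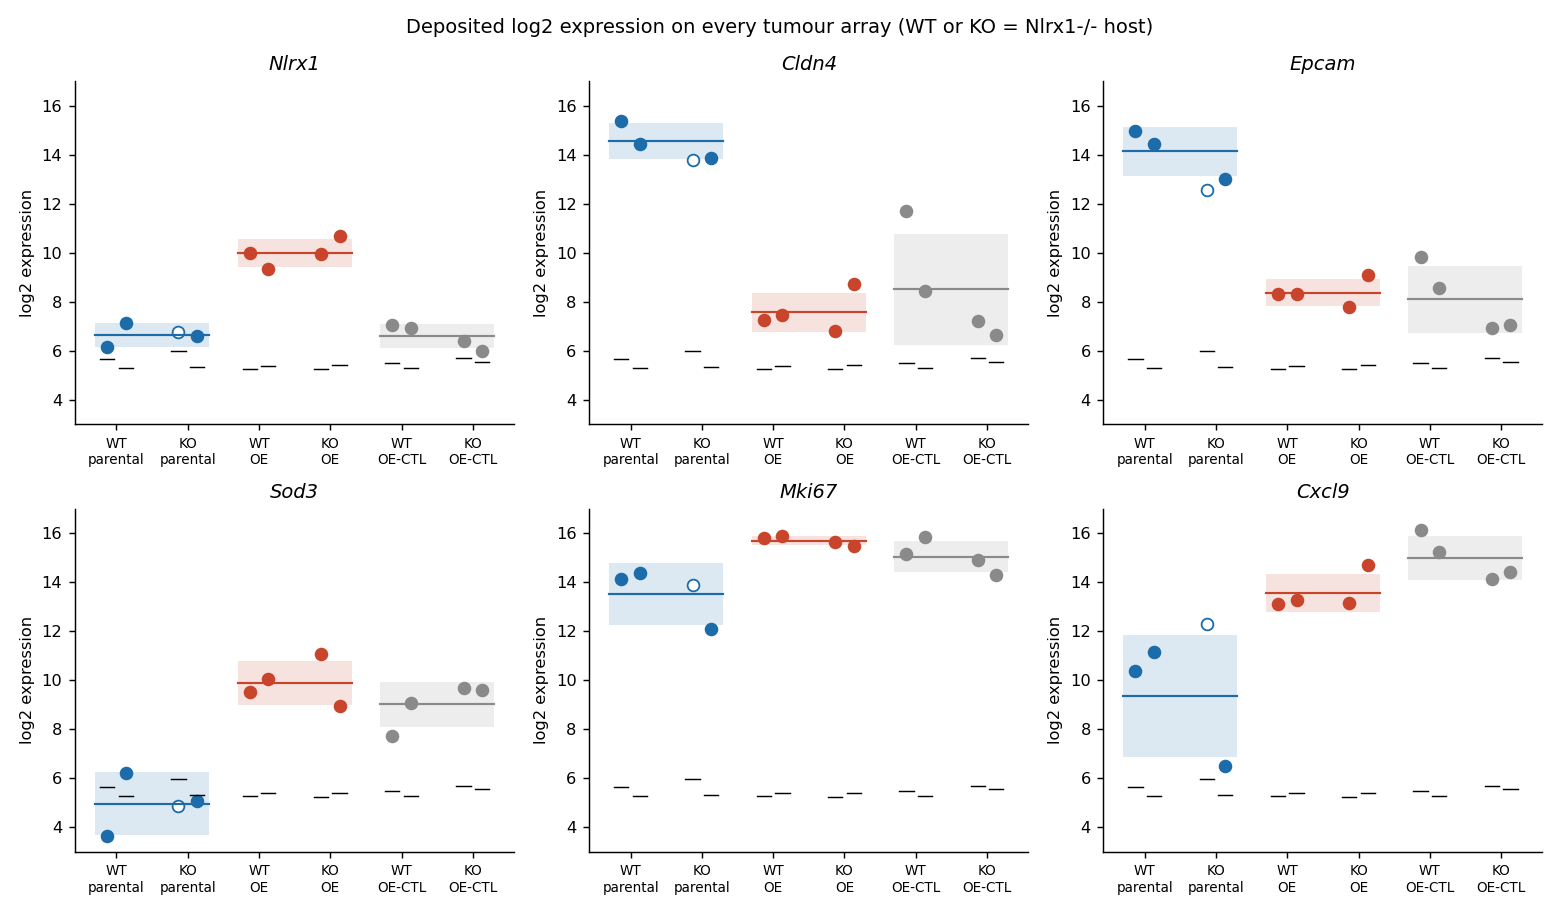
Log2 expression of 6 genes on each of the 12 tumour arrays, by host (WT or KO, the latter Nlrx1-/-) and injected line. Filled points are fitted arrays, the open point is the parental array recommended for exclusion, lines and bands are the mean ± SD of a line over the fitted arrays, and short black bars are the median of the negative control features of that array. All 4 4T1OE arrays lie above the parental arrays for Nlrx1, Sod3, Mki67 and Cxcl9, and below them for Cldn4 and Epcam.

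Across the 22206 features tested, 295 differed between 4T1OE and parental tumours (1.33% of features; limma, adjusted p under 0.05), 197 higher (0.887%) and 98 lower (0.441%) in 4T1OE. The called features named 277 genes, 184 higher and 93 lower. Among genes not under the negative control median on all arrays of a line, the largest rises were those of Sod3, a secreted superoxide dismutase, the chemokine gene Cxcl9, Pmp22, a membrane protein of myelin, Nlrx1 and the chemokine gene Cxcl10. The largest falls among them were those of the epithelial genes Cldn4 and Epcam, then Epb41l4a and Tnnt2, the cardiac troponin T gene. On 274 of the 277 genes the 4 4T1OE arrays lay apart from all 3 parental arrays, and on 220 from all 4. These genes were called on the same arrays, so their separation follows largely from the calling and is not further support. Among all features, the 4T1OE arrays lay above the 3 parental arrays on 9.96% and below them on 7.87%. For all 4 parental arrays the shares were 8.61% and 5.01%.

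With all 12 arrays 238 features were called (1.07%), 202 higher (0.91%) and 36 lower (0.162%), of which 191 were among the 295. With the arrays of these lines alone, 408 were called (1.84%) without the parental array advised against and 32 (0.144%) with it, 0.126% higher and 0.018% lower, and 31 of the 32 were among the 295. The direction of all 277 genes was the same with 12 arrays. That fit holds all the arrays used for calling, so this follows largely from the calling and is not further support. The split depended on how the width of the arrays' values was treated: 66.8% of calls were higher in 4T1OE in the values as deposited, 48.9% after quantile normalization and 49.7% with the array SD as a covariate. Quantile normalization gave 237 calls (1.07%), 116 higher (0.522%) and 121 lower (0.545%), and the SD covariate 151 (0.68%), 75 higher (0.338%) and 76 lower (0.342%). Leaving out 1 array at a time gave 83 to 342 calls, and fell below 295 by over 1.5 times without WT parental replicate 1 (141), Nlrx1-/- parental replicate 2 (83), WT 4T1OE replicates 1 (90) and 2 (104), and Nlrx1-/- 4T1OE replicates 1 (84) and 2 (121). Without the 2 fitted arrays high in lymph node stroma markers 98 were called. Of 82 called genes named by rule, 31 were not called with 12 arrays, 37 with the SD covariate and 41 without the 2 arrays high in lymph node stroma markers, and 12 were called under all 23 other settings that gave a p per gene: Nlrx1, Cldn4, Epcam, Cldn7, Cldn3, Sod3, Selp, Abcb1b, Abcb1a, Mgl2, Cdc45 and Ube2c.

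**Figure D2:**
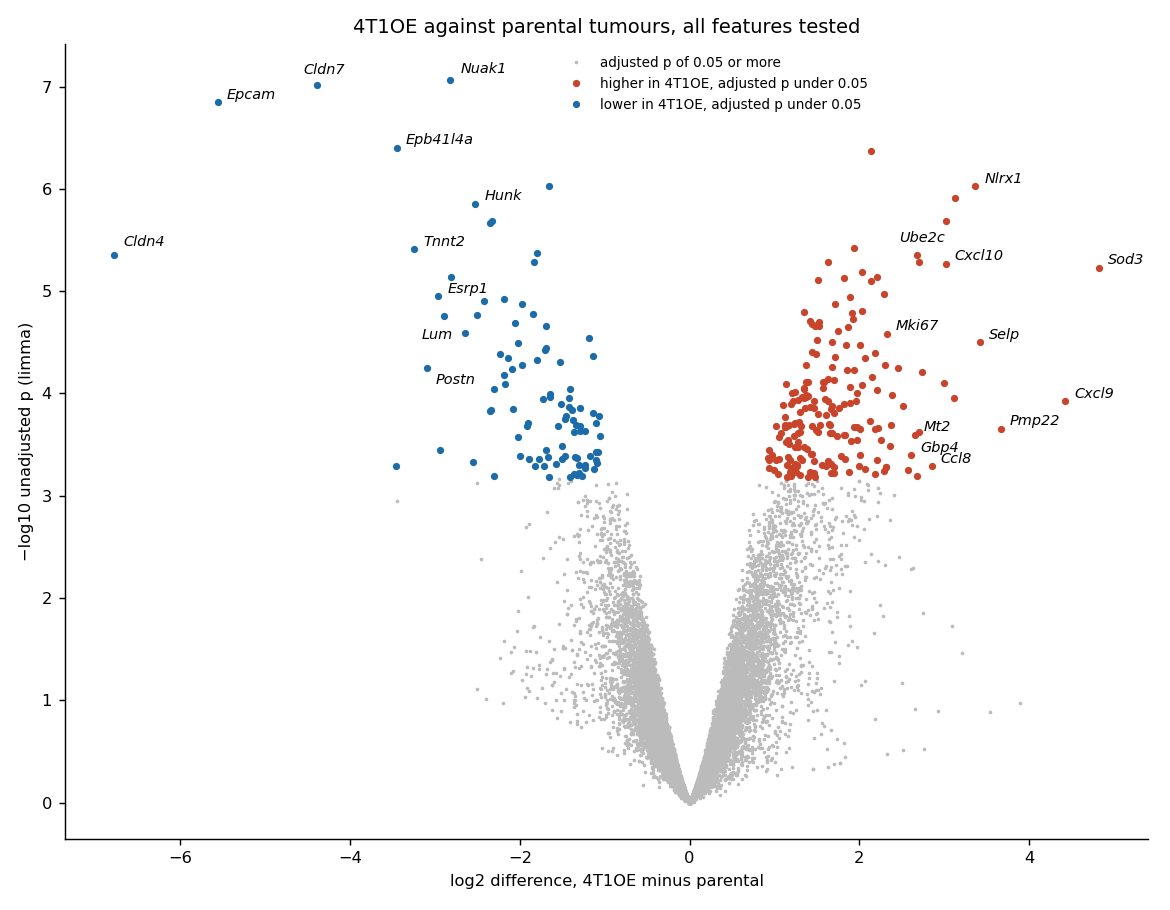
Difference between 4T1OE and parental tumours (x axis, log2) against -log10 of limma's unadjusted p (y axis) for all 22206 features tested. The 197 features called higher and 98 called lower in 4T1OE are coloured, and Cldn4 and Epcam lie farthest to the left and Sod3 farthest to the right.

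Epithelial genes had the largest falls. Of 25 measured genes of epithelial adhesion and junctions 6 fell and none rose, against 0.441% of all features lower: the claudin genes Cldn4, Cldn7 and Cldn3, Epcam, the desmosomal plaque gene Dsp and the P-cadherin gene Cdh3. Of the 25, 23 were lower in 4T1OE and the median difference was -0.77, where that of all features was -0.03. Of 22 measured regulators of epithelial identity 3 fell: Esrp1, which encodes an epithelial splicing regulator, Grhl2, a grainyhead transcription factor, and Rab25, a GTPase of epithelial recycling endosomes (median -0.56). E-cadherin (Cdh1, -1.31), plakoglobin (Jup, -1.73) and Perp (-1.56) were lower without passing the test.

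Cldn4, a tight junction claudin, read 15.35 and 14.42 in WT and 13.87 in Nlrx1-/- parental tumours, with 13.78 on the array left out. In 4T1OE tumours it read 7.24, 7.45, 6.82 and 8.71. The lines did not overlap, and the fitted difference was -6.78 (SE 0.86; limma, adjusted p = 0.00573; 0.00481 with 12 arrays). Epcam read 14.95 and 14.42 in WT and 13.02 in Nlrx1-/- parental tumours, 12.57 on the array left out, and 8.32, 8.30, 7.77 and 9.08 in 4T1OE tumours. Again every parental array was above every 4T1OE array, by -5.56 in the fit (SE 0.51; limma, adjusted p = 0.00105; 0.00165 with 12 arrays). Cldn7 was 8.19, 9.38 and 7.74 on parental arrays and 3.69 to 4.35 on 4T1OE arrays, which all lay under the median of their negative controls, so that it was at least 3.11 lower (limma, adjusted p = 0.00105).

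The other epithelial calls were smaller. Cldn3 read 8.06 to 8.55 on the 3 parental and 5.33 to 6.09 on the 4T1OE arrays, with a difference of -2.50 (SE 0.36; limma, adjusted p = 0.00936), and Dsp differed by -2.19 and Grhl2 by -2.18 (not called without the arrays high in lymph node stroma markers, limma, adjusted p = 0.0645). Esrp1 read 9.25 and 8.94 in WT but 6.70 in Nlrx1-/- parental tumours, and 4.44 to 5.65 in 4T1OE tumours, a difference of -2.96 (limma, adjusted p = 0.00819). Rab25 showed the same unevenness among parental arrays, at 9.53, 9.01 and 6.31, against 5.56 to 5.70 on 4T1OE arrays, and its call (-2.55; limma, adjusted p = 0.0423) held under 9 of 23 other settings. The negative control medians of the 4T1OE arrays were 5.24 to 5.41. Esrp1, Rab25 and Cldn3 had 4T1OE values near or under these, so the sizes of their falls rest partly on values near that limit. Cdh3 lay under the negative control median on all 4 4T1OE and on 2 of the 3 parental arrays, so its call (limma, adjusted p = 0.0458) compares values mostly under that limit, and no fold is given. With 12 arrays the same lists had 6 and 3 genes called lower, and 4 and 0 on the 8 arrays alone. Their medians were -0.57 and -0.36 with 12 arrays. Leaving out single arrays gave 4 to 8 calls in the first list and 1 to 5 in the second, which had 1 without WT parental replicate 2, WT 4T1OE replicate 1 or 2, or Nlrx1-/- 4T1OE replicate 1.

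Keratins did not follow in the test. None of 12 measured keratin genes was called, with a median of -0.25. The lowest were Krt14 (-2.07) and Krt7 (-1.85), and Krt19, which had the smallest p, lay under the negative control median on every 4T1OE array (limma, adjusted p = 0.142). Among 20 mesenchymal transition genes 1 rose, S100a4, a calcium-binding protein of motile cells, from 9.78, 12.63 and 10.46 on parental to 13.19 to 13.62 on 4T1OE arrays (2.58, SE 0.55; limma, adjusted p = 0.0458). All 4 4T1OE arrays were above the parental arrays for S100a4, but the call held under 8 of 23 other settings. Vimentin (Vim, 0.74), Zeb1 (-0.02), Snai1 (0.62), Twist1 (0.08) and fibronectin (Fn1, -0.02) were not called. The list's median was 0.06, and 0.57 with 12 arrays. Of all features 0.887% were called higher.

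The promoters of Epcam and Cldn4 are shown because these are the largest falls in the comparison. They are the 250 bases before the start of each gene, read along the gene from RefSeq on the build GRCm38.p6, chr17:87635729-87635978 on the plus strand and chr5:134946935-134947184 on the minus strand. Capitals mark CACCTG or its reverse complement CAGGTG, the E-box that SNAI and ZEB repressors are known to bind.
Epcam: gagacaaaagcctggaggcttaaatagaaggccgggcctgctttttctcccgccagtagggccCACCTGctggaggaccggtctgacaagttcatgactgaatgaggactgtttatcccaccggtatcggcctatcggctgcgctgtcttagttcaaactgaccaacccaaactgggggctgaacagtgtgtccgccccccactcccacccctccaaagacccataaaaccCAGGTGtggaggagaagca
Cldn4: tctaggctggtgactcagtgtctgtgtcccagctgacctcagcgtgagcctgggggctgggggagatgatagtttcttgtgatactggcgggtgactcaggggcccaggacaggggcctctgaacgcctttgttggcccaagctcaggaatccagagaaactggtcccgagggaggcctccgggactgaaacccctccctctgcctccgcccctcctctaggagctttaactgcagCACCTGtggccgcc
Among the 9 called epithelial genes 6 had a promoter in the table and 3 of these held the motif on either strand (Cldn4, Epcam and Rab25), as did 17.1% of all 27025 promoters in the same window. The match is a description of the letters.

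**Figure D3:**
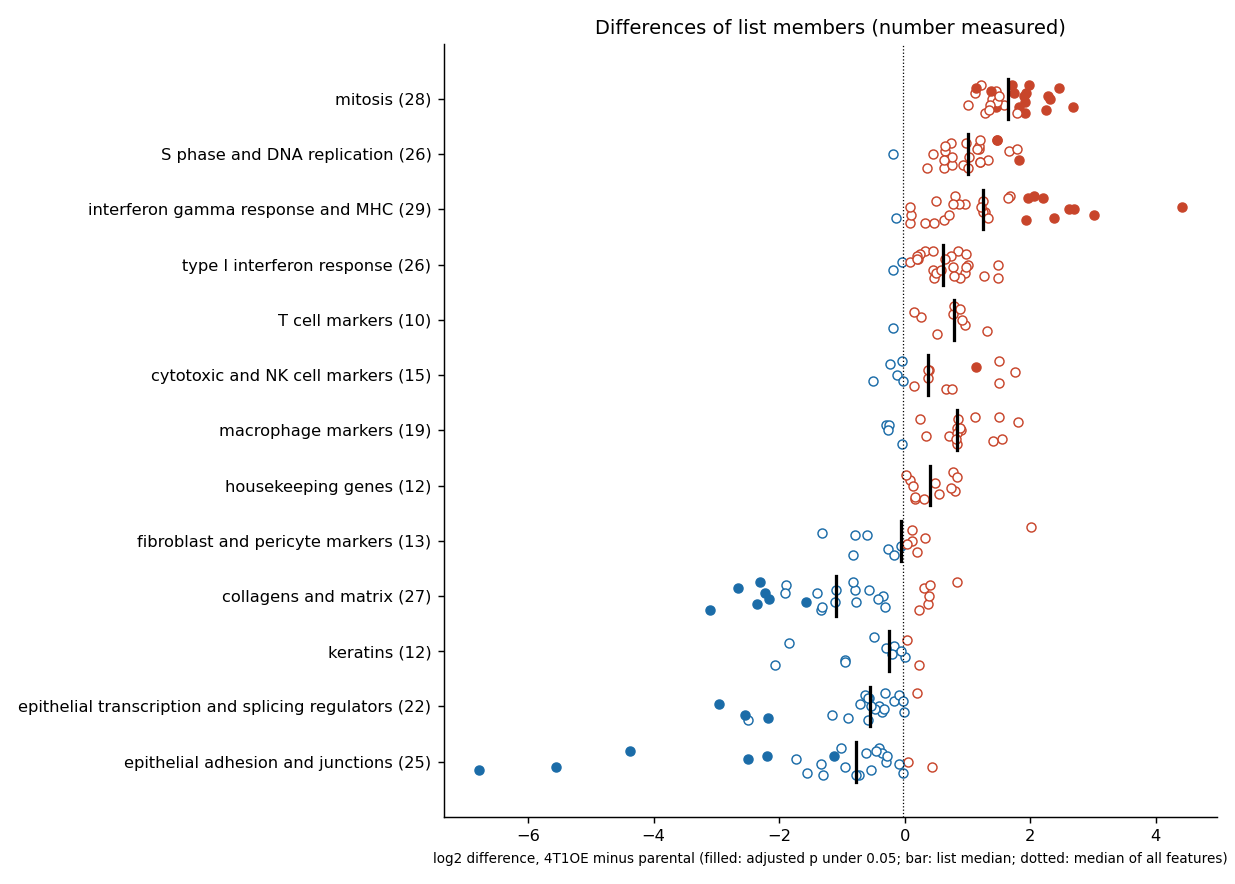
Differences between 4T1OE and parental tumours (x axis, log2) for the measured members of 13 gene lists (y axis, number measured in brackets). Each point is a gene, filled where the adjusted p was under 0.05, bars are list medians (1.64 for mitosis, -1.09 for collagens and matrix) and the dotted line is the median of all features, -0.03.

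Genes of mitosis were higher in 4T1OE tumours. Of 28 measured genes 16 rose and none fell, against 0.887% of all features higher, all 28 were above 0, and the median difference was 1.64. On 23 of the 28 the 4T1OE arrays lay above all 4 parental arrays, where 8.61% of all features did so. The 16 included Ube2c and Cdc20, which serve the anaphase-promoting complex, Ccna2 (cyclin A2), Mki67, the proliferation antigen Ki-67, the checkpoint kinase genes Bub1 and Bub1b, Aurka, the spindle genes Tpx2, Nusap1, Prc1 and Nuf2, the kinesin genes Kif11, Kif20a, Kif2c and Kif4, and the contractile ring gene Anln.

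Ube2c read 9.62 and 9.79 in WT and 8.46 in Nlrx1-/- parental tumours, 8.38 on the array left out, and 11.77, 11.87, 11.61 and 12.22 in 4T1OE tumours. The 4T1OE arrays were close together and all above the parental arrays, with a difference of 2.68 (SE 0.34; limma, adjusted p = 0.00573). Mki67 read 14.12, 14.39 and 12.09 on the parental arrays, 13.89 on the array left out, and 15.79, 15.88, 15.63 and 15.47 on the 4T1OE arrays. Its difference was 2.32 (SE 0.35; limma, adjusted p = 0.011), and 0.0252 with 12 arrays. Ccna2 followed the same order, at 10.56, 10.69 and 8.35 on parental and 11.96 to 12.43 on 4T1OE arrays (2.46; limma, adjusted p = 0.0161). Bub1 differed by 2.29, Cdc20 by 2.26, Tpx2 by 1.98, Anln and Nusap1 by 1.92 each, Aurka by 1.74 and Kif4 by 1.14.

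For each of these genes Nlrx1-/- parental replicate 2 was the lowest of the fitted parental arrays, and over the list that array lay 2.27 below the fitted medians, against -0.80 and -0.59 on the WT parental arrays and 0.00 to 0.55 on the 4T1OE arrays. Without it the median was still positive, and 3 of 28 genes were called. The number called was 16 with 12 arrays, 6 on the 8 arrays alone, 10 after quantile normalization or with the SD covariate, and 6 without the 2 arrays high in lymph node stroma markers. Leaving out single arrays gave 3 to 17, with under 16 by over 1.5 times without WT parental replicate 1 (10), Nlrx1-/- parental replicate 2 (3), WT 4T1OE replicate 1 (9), or Nlrx1-/- 4T1OE replicates 1 (5) and 2 (8). The median ran from 1.25 to 1.87 in these fits. Housekeeping genes, 12 measured, were also all above 0, with a median of 0.40 and none called.

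S phase genes lay between. Of 26 measured genes of DNA replication 25 were higher in 4T1OE (median 1.01) and 2 rose, against 0.887% of all features higher. The 2 were Cdc45, a subunit of the replicative helicase complex, and Uhrf1, which maintains DNA methylation at replication forks. Cdc45 was 6.22, 6.70 and 6.08 on parental arrays and 7.94 to 8.21 on 4T1OE arrays, without overlap (1.82, SE 0.24; limma, adjusted p = 0.00626), and was called under all 23 other settings. Uhrf1 rose by 1.47 (limma, adjusted p = 0.0217) and was not called with 12 arrays (adjusted p = 0.107); the parental array left out read 10.28. It was not called with the SD covariate (adjusted p = 0.0631) or without the arrays high in lymph node stroma markers (0.0685) either. The helicase genes Mcm2, Mcm3, Mcm4, Mcm5 and Mcm6 were 1.16 to 1.66 higher without passing. Outside the lists, and chosen after their values were seen, the condensin genes Smc2 (1.60), Smc4 (1.34) and Ncaph (1.56), the kinases Plk4 (1.50) and Melk (2.06), and E2f8 (1.89) also rose.

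The promoters of Ube2c and Mki67 are given as those of a strongly changed and a widely used member of the group, at chr2:164769679-164769928 (plus strand) and chr7:135716380-135716629 (minus strand). Capitals mark CCAAT or ATTGG, the CCAAT box, and TTTGAA or TTCAAA, the core of the cell cycle homology region, both known from cell cycle promoters. In Ube2c a CCAAT and an ATTGG overlap.
Ube2c: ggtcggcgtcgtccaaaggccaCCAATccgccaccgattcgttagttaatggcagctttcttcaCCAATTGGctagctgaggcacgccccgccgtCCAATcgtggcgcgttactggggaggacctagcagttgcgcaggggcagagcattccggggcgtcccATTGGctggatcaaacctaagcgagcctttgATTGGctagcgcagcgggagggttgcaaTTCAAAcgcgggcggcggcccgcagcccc
Mki67: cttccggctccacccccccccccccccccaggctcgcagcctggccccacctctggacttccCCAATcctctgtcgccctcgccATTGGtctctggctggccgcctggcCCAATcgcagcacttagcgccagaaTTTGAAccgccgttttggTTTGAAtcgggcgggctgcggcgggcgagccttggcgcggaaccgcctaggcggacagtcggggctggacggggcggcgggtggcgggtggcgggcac
Of the 16 called mitosis genes 13 had a promoter in the table. CCAAT stood in 9 of these and in 34.5% of all promoters, TTTGAA in 5 and in 16.3%, and both in 4 (Ube2c, Mki67, Cdc20 and Kif11) and in 5.76%.

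Interferon gamma response genes were the other group with several rises. Of 29 measured genes of this response and of antigen presentation 9 rose and none fell, against 0.887% of all features higher, with a median of 1.25 and 28 of 29 above 0. They were the chemokine genes Cxcl9, Cxcl10 and Cxcl11, which attract T cells, the guanylate-binding protein genes Gbp2, Gbp3, Gbp4 and Gbp7, and the immunity-related GTPase genes Igtp and Iigp1. The MHC class I genes H2-K1 (0.10), H2-D1 (0.32) and B2m (0.09) were not called, nor were Ifng (0.80) and Irf1 (0.62). The type I interferon list had no call among 26 genes (median 0.62), with Ifit1 at 0.97 (limma, adjusted p = 0.0748).

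Cxcl10 read 7.59 and 8.17 in WT and 5.89 in Nlrx1-/- parental tumours, 7.60 on the array left out, and 10.16, 9.84, 10.26 and 10.24 in 4T1OE tumours. The 4T1OE arrays were nearly level and all above the parental ones, with a difference of 3.02 (SE 0.39; limma, adjusted p = 0.00573), which was not called on the 8 arrays alone (adjusted p = 0.0689) and was called under the other 22 settings. Cxcl9 read 10.37, 11.16 and 6.52 on parental and 13.09, 13.27, 13.17 and 14.70 on 4T1OE arrays, and 12.29 on the parental array left out. The Nlrx1-/- parental array was far below the others, and the difference of 4.43 (SE 0.79; limma, adjusted p = 0.0217) became 3.47 with 12 arrays and was not called (adjusted p = 0.106), nor was it with the SD covariate (0.0508) or without the arrays high in lymph node stroma markers (0.0801). Iigp1 differed by 2.71, Gbp4 by 2.61, Gbp2 by 2.38, Igtp by 2.21, Cxcl11 by 2.07, Gbp3 by 1.97 and Gbp7 by 1.94.

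These calls rested on few arrays. With 12 arrays 4 of the 29 genes were called, on the 8 arrays alone none was (limma), with the SD covariate 3, after quantile normalization 2 and without the arrays high in lymph node stroma markers 1. Leaving out Nlrx1-/- parental replicate 2, which lay 2.16 below the fitted medians of the list against -0.62 and -0.66 on the WT parental arrays, left 1 call, as did leaving out Nlrx1-/- 4T1OE replicate 1. Leaving out WT parental replicates 1 and 2 gave 5 and 2, WT 4T1OE replicates 1 and 2 gave 5 and 4, and Nlrx1-/- 4T1OE replicate 2 gave 4. The median stayed between 0.77 and 1.45 in these fits.

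The promoters of Cxcl10 and Igtp are shown as members that carry an interferon-stimulated response element core, TTTC and TTTC (or GAAA and GAAA) with 2 bases of any kind between them, in capitals, at chr5:92348890-92349139 (minus strand) and chr11:58199306-58199555 (plus strand).
Cxcl10: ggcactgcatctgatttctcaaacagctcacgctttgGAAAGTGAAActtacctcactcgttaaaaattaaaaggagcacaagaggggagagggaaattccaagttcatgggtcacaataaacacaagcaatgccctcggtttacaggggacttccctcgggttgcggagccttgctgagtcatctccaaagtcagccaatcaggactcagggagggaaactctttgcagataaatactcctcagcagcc
Igtp: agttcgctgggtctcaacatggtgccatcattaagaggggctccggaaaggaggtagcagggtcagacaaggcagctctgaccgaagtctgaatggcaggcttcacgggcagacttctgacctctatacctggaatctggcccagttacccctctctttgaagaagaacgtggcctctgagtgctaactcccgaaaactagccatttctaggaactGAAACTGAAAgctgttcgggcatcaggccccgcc
Of the 9 called genes 6 had a promoter in the table, and 5 of these held the motif on either strand (Cxcl10, Gbp2, Gbp3, Gbp7 and Igtp), against 3.05% of all promoters.

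Immune cell markers gave few calls, where 0.887% of all features were called higher. None of 10 T cell, 19 macrophage, 11 neutrophil, 10 B and plasma cell or 11 mast cell markers was called (limma). Their medians were 0.78, 0.84, 0.57, 0.53 and 0.04, and 0.26, 1.37, 0.49, 0.14 and 0.38 with 12 arrays. The macrophage median was 0.09 with the SD covariate, and on Nlrx1-/- 4T1OE replicate 1 the T cell and B cell lists lay 2.64 and 3.51 above their fitted medians, against -0.38 to 0.00 on the other 4T1OE arrays. Of 15 cytotoxic and NK cell markers Klrk1, the activating receptor NKG2D, rose by 1.13 (limma, adjusted p = 0.0274), from 5.10 to 5.78 on parental to 6.33 to 6.70 on 4T1OE arrays, and of 10 dendritic cell markers Itgax (CD11c) rose by 1.64. The parental Klrk1 values lay near the negative control medians of those arrays (5.29 to 5.64). Among 18 checkpoint genes Cd274, which encodes PD-L1, rose from 7.74, 7.75 and 6.40 to 8.51 to 9.49, with no overlap (1.68, SE 0.30; limma, adjusted p = 0.0227; 0.0272 with 12 arrays). Of 22 chemokine genes of a separate list 1 rose, Ccl8 (2.85), and of 17 complement genes C1ra (1.29) and Cfb (1.79) rose. All 6 of these calls ended without the arrays high in lymph node stroma markers, a fit that lacks 1 4T1OE array. The differences there (limma) were 1.04 for Klrk1 (adjusted p = 0.109), 1.465 for Itgax (0.0845), 1.615 for Cd274 (0.0792) and 3.04 for Ccl8 (0.0927). C1ra was at 1.17 (0.0995) and Cfb at 1.73 (0.13). The calls of Klrk1, Itgax, C1ra and Cfb also ended with the SD covariate. Skeletal muscle markers, 20 measured, had no call and a median of 1.40, with WT 4T1OE replicate 1 at 3.44 above their fitted medians and the other 4T1OE arrays at -0.69 to 0.01. The part of cell composition in the interferon and chemokine values was not tested.

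Collagen and matrix genes were lower. Of 27 measured genes 7 fell and none rose, against 0.441% of all features lower, with a median of -1.09: Postn (periostin), the proteoglycan gene Lum (lumican), the fibrillar collagen genes Col1a1, Col1a2 and Col5a2, and the thrombospondin genes Thbs1 and Thbs2. Col3a1 (-1.89) and Tnc (-1.91) were lower without passing. Postn read 15.45 and 15.62 in WT and 14.03 in Nlrx1-/- parental tumours, 13.70 on the array left out, and 11.65, 11.55, 12.12 and 12.23 in 4T1OE tumours. Its lines did not overlap, and the difference was -3.10 (SE 0.51; limma, adjusted p = 0.0161; 0.0262 with 12 arrays). It was called under 18 of 23 other settings, and not with the SD covariate (adjusted p = 0.0508), on the 8 arrays alone (0.0675), or without WT parental replicate 1 or WT 4T1OE replicate 1 or 2.

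The parental array left out was low for these genes. Lum read 12.26, 12.79 and 11.49 on the 3 parental arrays, 8.32 on the array left out, and 8.69 to 10.06 on 4T1OE arrays. Its call (-2.65; limma, adjusted p = 0.011) ended with 12 arrays (adjusted p = 0.215). Col1a1 read 14.06, 14.29 and 12.68 against values between 11 and 11.60 on 4T1OE arrays and 11.09 on the array left out. With 12 arrays 2 of the 27 genes were called, on the 8 arrays alone none was (limma), and with the SD covariate 2. The median was -0.82 with 12 arrays. On 14 genes the 4T1OE arrays lay below the 3 parental arrays, and on 3 below all 4, against 7.87% and 5.01% of all features. Leaving out single arrays gave 1 to 7, with 1 without WT 4T1OE replicate 1, 2 without WT 4T1OE replicate 2, 3 without WT parental replicate 1, and 4 without WT parental replicate 2 or Nlrx1-/- 4T1OE replicate 1. Fibroblast and pericyte markers, 13 measured, had no call and a median of -0.05, with Pdgfrb, a pericyte receptor, at -1.32 (limma, adjusted p = 0.0671), and their part in the matrix values was not tested.

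Sod3, which removes superoxide outside cells, had the largest fitted rise. It read 3.63 and 6.20 in WT and 5.06 in Nlrx1-/- parental tumours, 4.86 on the array left out, and 9.51, 10.03, 11.07 and 8.94 in 4T1OE tumours. Parental values were near the negative controls and under them on 2 of 3 arrays, so the size rests partly on values under that limit. All 4T1OE arrays were above the parental ones, by 4.83 (SE 0.63, limma, adjusted p = 0.006, and 0.00485 with 12 arrays). Of 26 antioxidant genes Selenop, a selenium transport protein, also rose (1.98; limma, adjusted p = 0.0274), from 11.90, 12.95 and 12.99 to 13.85 to 15.69, and no other did (list median 0.35). Sod2 (1.36), Hmox1 (2.14) and Gclm (1.33) were higher without passing, and Sod1 was at -0.48. Of all features 0.887% were called higher and 0.441% lower. Among 19 glutathione transferase genes Mgst1, a microsomal form, fell from 12.24 to 12.51 on parental to 10.15 to 10.80 on 4T1OE arrays, without overlap (-1.83, SE 0.24; limma, adjusted p = 0.00573). The metal-binding metallothionein gene Mt2 rose by 2.65 (limma, adjusted p = 0.0295). The calls of Selenop and Mt2 ended with the SD covariate (adjusted p = 0.0907 and 0.0748) and without the arrays high in lymph node stroma markers (0.0532 and 0.0792).

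Partners of NLRX1 and several processes linked to it were listed as well. Of all features 0.887% were called higher and 0.441% lower. Of 25 measured partners and innate signalling genes Nlrx1 alone was called, and Mavs (0.36), Tufm (0.36), a mitochondrial elongation factor that binds NLRX1, and Traf6 (0.71) were not. None of 28 autophagy and lysosome genes was called (median -0.003, and 0.43 with 12 arrays). Nor was any of 47 oxidative phosphorylation genes (median 0.27, and 0.59 with 12 arrays) or 26 of glycolysis and hypoxia (0.69 and 1.04). Among the latter Egln3, an oxygen-sensing prolyl hydroxylase, came nearest (1.39, limma, adjusted p = 0.0543). Of 24 inflammatory cytokines and NF-kB targets Icam1, an adhesion molecule, rose by 1.16, and Il23a, a subunit of interleukin 23, and Tslp, an epithelial cytokine, fell by 2.02 and 1.47. None of 23 p53 targets was called, with Cdkn1a, the inhibitor p21, at 2.03 (limma, adjusted p = 0.0635; 0.0495 with 12 arrays). Icam1 and Tslp were not called with the SD covariate (adjusted p = 0.109 and 0.0729) or without the arrays high in lymph node stroma markers (0.136 and 0.0539). Psat1, an enzyme of serine synthesis, rose by 2.01, the 1 call among 23 stress response genes.

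Other called genes lay outside these groups. Selp, the adhesion molecule P-selectin, was under the negative controls on all 3 parental arrays (3.74, 4.20 and 4.48) and read 7.16, 7.77, 7.30 and 7.75 in 4T1OE tumours, so it was at least 2.08 higher (limma, adjusted p = 0.0122; 0.0209 with 12 arrays). None of 15 endothelial markers was called. Dnase1l3, a secreted nuclease of phagocytes, was at least 1.87 higher in the same way, but read 6.84 on the parental array left out and was not called with it (adjusted p = 0.0953). The drug efflux pump genes Abcb1b (2.70) and Abcb1a (1.94), the metalloreductase gene Steap1 (3.00), the endothelial lipase gene Lipg (2.68), Ptges, a prostaglandin E synthase (2.14), and Mgl2, a macrophage lectin (2.20), rose. Pmp22 rose by 3.67 (limma, adjusted p = 0.0277), from 7.19, 9.34 and 10.46 to 12.26 to 13.33. The histone gene H3c13 rose too (2.30), but near-identical copies share its sequence and cannot be told apart. The calls of Pmp22, Lipg and H3c13 ended with the SD covariate and without the arrays high in lymph node stroma markers, and those of Steap1 and Dnase1l3 with the SD covariate.

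Among the genes that fell, Epb41l4a, a cytoskeletal adaptor gene, read 9.28, 9.54 and 9.21 on parental and 6.24, 5.45, 6.33 and 5.35 on 4T1OE arrays. Without the parental array left out, its groups were tight and far apart (-3.45, SE 0.35, limma, adjusted p = 0.00188). It was called under 22 of 23 other settings, and not on the 8 arrays alone (limma, adjusted p = 0.0675). Its 4T1OE values of 5.45 and 5.35 lay near the negative control medians of those arrays (5.39 and 5.41), so the size rests partly on values near that limit. Nuak1, a kinase of the AMPK family, read 11.50, 10.69 and 10.81 on the 3 parental arrays and 7.60 to 8.56 on the 4T1OE arrays (-2.83; limma, adjusted p = 0.00105), but 7.52 on the parental array left out, which ended the call (adjusted p = 0.106 with 12 arrays). Tnnt2 fell by 3.25, Prom2, a membrane protrusion protein, by 2.81, Hunk, a kinase, by 2.52 and Tmeff1 by 2.43. Growth factor genes had 2 falls among 27, Pdgfc, a platelet-derived growth factor (-2.35), and the receptor Fgfr1 (at least 1.15 lower). Among 18 angiogenic genes Nrp2, a co-receptor, rose by 1.85 while the Notch ligand gene Jag1 fell by 1.37. Of all features 0.441% were called lower and 0.887% higher. Mmp11 was the 1 call among 20 metalloproteinase genes and fell by 1.45. With 12 arrays Il23a, Tslp, Psat1, Lipg, Hunk, Tmeff1, Pdgfc, Fgfr1, Jag1 and Mmp11 were not called. Without the arrays high in lymph node stroma markers Jag1 and Mmp11 were not called, and with the SD covariate Jag1 was not.

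The transduced control line was set beside these values. Comparisons of 4T1OE with parental, of 4T1OE with 4T1OE-CTL and of 4T1OE-CTL with parental share arrays, so their values are given side by side and their likeness is not a result. Cldn4 read 11.71, 8.44, 7.22 and 6.64 and Epcam 9.81, 8.57, 6.94 and 7.06 in 4T1OE-CTL tumours, below every parental array. Epcam differed by 0.28 between 4T1OE and 4T1OE-CTL (limma, adjusted p = 0.746) and by -5.84 between 4T1OE-CTL and parental (adjusted p = 0.000619). Sod3 read 7.71, 9.07, 9.68 and 9.60 in 4T1OE-CTL tumours, 3.95 above parental (limma, adjusted p = 0.0071) and 0.87 below 4T1OE (adjusted p = 0.371). Of all features 4.73% were called between 4T1OE and 4T1OE-CTL and 2.59% between 4T1OE-CTL and parental.

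The genes named by rule were also set against the control line. Nlrx1, Epb41l4a, Mgl2, Abcb1b, Abcb1a, Mgst1, Tslp, Selenop, Nrp2 and Thbs2 differed from both other lines in the same direction. Mgl2 read 6.79 to 6.90 on parental, 6.54 to 7.49 on 4T1OE-CTL and 8.63, 8.87, 8.94 and 9.73 on 4T1OE arrays, with no overlap of 4T1OE and either other line (2.09 above 4T1OE-CTL; limma, adjusted p = 0.00426). Epb41l4a was 2.52 and Mgst1 2.75 lower in 4T1OE than in 4T1OE-CTL. The interferon genes Gbp4 and Igtp were higher in 4T1OE than in parental tumours but 1.98 and 2.09 lower than in 4T1OE-CTL tumours (limma, adjusted p = 0.044 and 0.0238), and so were Cd274, by 1.24, and C1ra, by 0.92. Il23a, Mmp11 and Pdgfc were lower in 4T1OE than in parental tumours but 1.27, 1.09 and 1.08 higher than in 4T1OE-CTL tumours. Cxcl9 read 14.14 to 16.12 in 4T1OE-CTL tumours, and Cxcl10 9.18 to 10.41. Over the mitosis list the median was 0.36 between 4T1OE and 4T1OE-CTL and 1.42 between 4T1OE-CTL and parental, and over collagens and matrix -0.23 and -0.84.

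**Figure D4:**
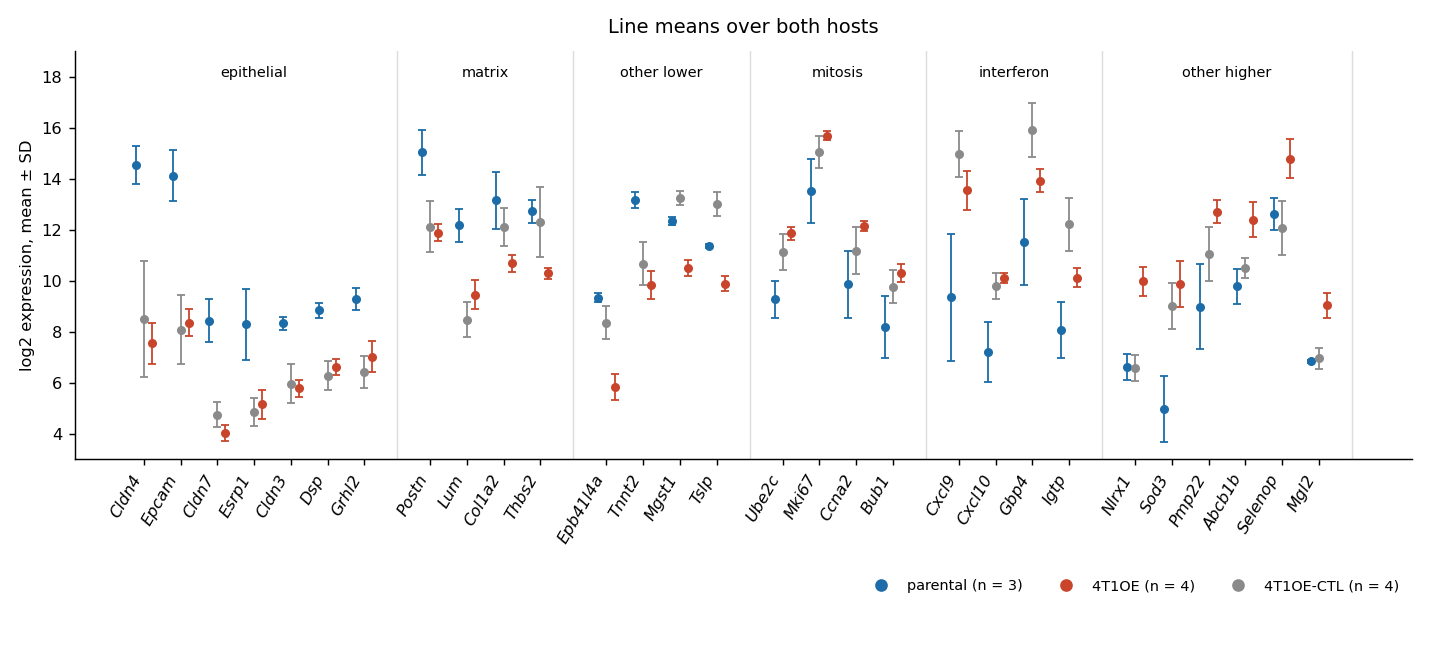
Mean log2 expression ± SD (y axis) of named genes (x axis, grouped) in parental (n = 3), 4T1OE-CTL (n = 4) and 4T1OE (n = 4) tumours over both hosts. Cldn4, Epcam, Cldn7 and Esrp1 are low in both transduced lines, whereas Nlrx1, Abcb1b, Selenop and Mgl2 are high in 4T1OE and Mgst1 and Tslp are lower in 4T1OE than in both other lines.

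Within hosts Nlrx1, Epcam, Cldn7 and Cldn4 had the same direction. These genes were called over both hosts on the same arrays, so this follows largely from the choice and is not further support. In WT hosts (2 arrays against 2) 32 features were called (0.144%), 8 higher (0.036%) and 24 lower (0.108%). In Nlrx1-/- hosts, with 1 parental array assumed to vary as the other groups, 71 were called (0.32%), 58 higher (0.261%) and 13 lower (0.0585%). Nlrx1 rose by 3.02 in WT (SE 0.41; limma, adjusted p = 0.043) and by 3.70 in Nlrx1-/- hosts (SE 0.50; adjusted p = 0.0316). Epcam fell by 6.37 in WT and 4.59 in Nlrx1-/- hosts, and Cldn7 was lower in both as well. Cldn4 was -7.55 in WT hosts (limma, adjusted p = 0.0279) and -6.10 in Nlrx1-/- hosts (adjusted p = 0.065), and 0.0498 there with both parental arrays.

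The largest differences called in 1 host are given with the value in the other. Besides Cldn4, those in WT hosts were Esrp1 (-3.77, against -1.70 in Nlrx1-/- hosts), Postn (-3.94 against -1.86), Ptges (2.50 against 1.48), Mgl2 (2.49 against 1.88), Abcb1a (2.19 against 1.60) and Slc40a1, the iron exporter ferroportin (2.65 against -0.38). In Nlrx1-/- hosts they were Cxcl9 (7.42 against 2.41 in WT), Ly6c1, a surface protein of monocytes and endothelium (4.70 against -0.20), Gbp4 (4.24 against 1.47), H3c13 (3.92 against 1.25), Tmeff1 (-3.39 against -1.85), Esyt3 (-3.15 against -1.33) and Ntn1, the guidance cue netrin 1 (-3.02 against -1.97). Cxcl10 was called in both, at 2.12 and 4.36. With the parental array left out included, 6 features were called in WT (0.027%) and 48 in Nlrx1-/- hosts (0.216%), and the Nlrx1-/- differences of Cxcl9, Gbp4 and Ly6c1 were 4.53, 2.65 and 1.25 and those of Tmeff1, Esyt3 and Ntn1 -2.11, -1.47 and -1.14, none of them called (limma). Epcam, Cldn7, Cxcl10 and H3c13 were called there with both parental arrays too.

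No feature passed the test that the difference between lines depends on the host (0 of 22206; limma, lowest adjusted p = 0.9997; 663 at an unadjusted p under 0.05, and 0 with 12 arrays). The largest interactions by rule were Cxcl9 (5.0), Ly6c1 (4.90) and the MHC class II gene H2-Aa (4.59) as more positive in Nlrx1-/- hosts, and the granzyme genes Gzmg (-6.02) and Gzmf (-5.51) and the arginase gene Arg1 (-4.68) as more negative. H2-Aa read 15.31, 14.28 and 11.61 on parental and 14.41, 14.01 (WT), 15.92 and 15.31 (Nlrx1-/-) on 4T1OE arrays. In each of these values Nlrx1-/- parental replicate 2 was the 1 parental array of those hosts. With both parental arrays, the interactions were 2.12, 1.45 and 3.68, and -3.38, -3.15 and -3.09.

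Over lists, the median of the interferon gamma list was 0.57 in WT and 2.29 in Nlrx1-/- hosts, that of the mitosis list 1.15 and 2.48, that of epithelial adhesion and junctions -0.83 and -0.62 and that of collagens and matrix -1.05 and -0.78. In both hosts the sign of each median was that of the whole comparison. The whole comparison averages the hosts over the same arrays, so this likeness follows largely from the design and is not further support. The Nlrx1-/- medians rest on 1 parental array, at -2.16 for the interferon gamma and -2.27 for the mitosis list, relative to the fitted medians. The parental array left out lay at -0.98 and -1.42. Called members of the mitosis and interferon lists were all larger in Nlrx1-/- hosts, and the epithelial and matrix ones larger in WT hosts except Thbs1 (-1.04 against -2.39), but none of these differences between hosts passed the test.

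**Figure D5:**
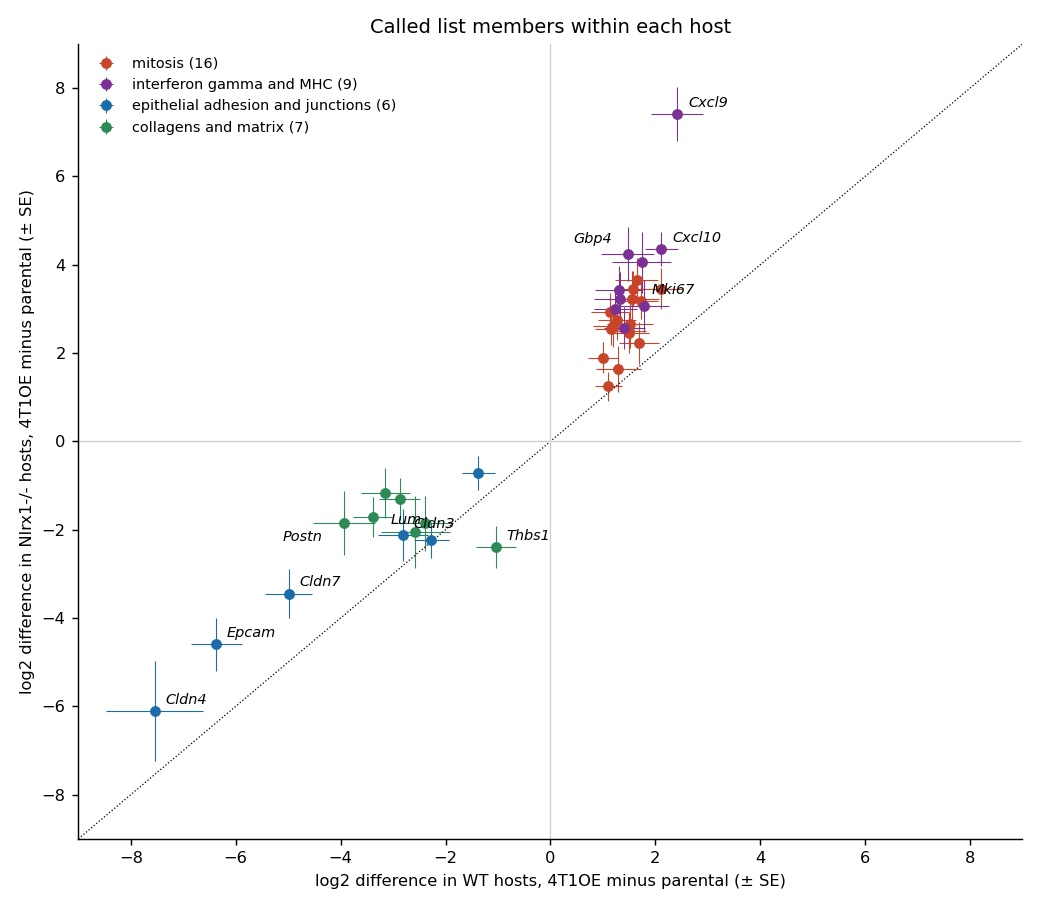
Difference between 4T1OE and parental tumours in WT hosts (x axis, log2 ± SE) against that in Nlrx1-/- hosts (y axis, log2 ± SE) for the called members of 4 lists (16 mitosis, 9 interferon gamma and MHC, 6 epithelial adhesion and 7 matrix genes). The dotted line marks equal differences, and Cxcl9, at 2.41 and 7.42, lies farthest from it.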

How the data were processed

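RNA pooled from tumours was measured on Clariom S mouse arrays, 12 tumour arrays in 6 groups of 2 and 1 array of a control sample whose column held no values and was not used. The deposited values are on the log2 scale. Transcriptome Analysis Console was used, per the submitters' processing notes; the background correction and normalization were not given in the sources used here, nor were scan dates or other batches. The values were used as deposited. Of 28846 features, 6640 controls were dropped and 22206 tested; 19572 had a gene symbol. The median of 5222 negative control features on each array served as the detection limit, and a gene under it on every array of a line is given as a bound. A linear model with host and line as terms was fitted to 11 arrays (limma 3.58.1, R 4.3.3), leaving out Nlrx1-/- parental replicate 1, with Benjamini-Hochberg adjustment over all features and a threshold of 0.05. Hosts and the interaction came from a fit of group means. The number of arrays limits the precision.

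The members and gene lists were chosen with earlier results of these data known. Genes named were Nlrx1 and 4 markers (Cldn4, Epcam, Sod3 and Mki67). Up to 15 called in each direction by size were added, with the largest within hosts and in the interaction. So were called list members, or the member with the smallest p of a list with none. The remaining list members named are examples chosen after their values were seen. Replicate numbers were not used as pairs in the main fit. Of 10 pairs of groups, 2 had correlated deviations over 0.1 (-0.31 to 0.37). With 2 arrays a group, these values cannot exclude pairing. The fit was tested on simulated data. Alternatives covered the arrays fitted, weights, scaling, filters, the threshold and each array left out. Promoters came from RefSeq (GRCm38.p6), with the start farthest upstream standing for each gene. Motifs were searched on both strands of the 250 bases before that start.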

Additional observations from a re-analysis of the deposited data

Results flagged for a closer look

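In 10 of the 109 genes named, 1 of the 4 4T1OE arrays stood apart from the other 3. The test compares the gap with the range of the 4 values, so a small gap can pass. It sets apart about 5% of such groups by chance. Nlrx1-/- 4T1OE replicate 1 was the array in 6 of them. There Glycam1, a ligand of lymph node venules, read 12.75 (others 3.97 to 4.33), the B cell gene Ms4a1 7.36 (3.92 to 4.10), the T cell gene Icos 9.35 (6.31 to 6.79), Ly6c1 11.77 (9.88 to 10.01), the granzyme gene Gzmg 9.37 (11.14 to 11.38) and Tmeff1 7.64 (8.50 to 8.57). On Nlrx1-/- 4T1OE replicate 2, Cxcl9 read 14.70 (13.09 to 13.27) and Pdgfc 12.00 (12.15 to 12.17). On WT 4T1OE replicate 1 the mitotic kinase gene Bub1b read 11.23 (10.42 to 10.55), and on replicate 2 Atp5c1, an ATP synthase subunit, read 14.25 (15.05 to 15.15).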

How the results depend on the processing

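All 82 called genes named kept their sign under every alternative tried. The alternatives used mostly the arrays on which the genes were called, so this follows largely from the calling and is not further support. With the array advised against included, 51 of the 82 were still called with 12 arrays and 17 on the 8 arrays alone. Counts of calls moved more. On the 8 arrays alone 32 features were called over both hosts, 5 in WT and 0 in Nlrx1-/- hosts (limma; 2472 at an unadjusted p under 0.05 in the latter), and on 7 arrays 136 in Nlrx1-/- hosts. With 12 arrays and after quantile normalization 6 each were called in WT hosts. Array weights gave 666, 61 and 287 calls over both, WT and Nlrx1-/- hosts, the array SD as a covariate 151, 8 and 129, and an unadjusted p under 0.05 with a fold of 2 gave 1048, 1203 and 1046, and 619 for the interaction. Leaving out 1 array at a time gave 83 to 342 over both hosts, 0 (without WT 4T1OE replicate 1 or 2; limma, 1344 and 1164 at an unadjusted p under 0.05) to 303 (without WT parental replicate 2) in WT hosts, with 4 without WT parental replicate 1, 7 without either Nlrx1-/- 4T1OE array, 10 without either WT and 57 without either Nlrx1-/- 4T1OE-CTL array. In Nlrx1-/- hosts it gave 1 (without either Nlrx1-/- 4T1OE array) to 102, with 3 without either WT 4T1OE array. Chosen after seeing the data, arrays with an SD of 3 or more gave 378 in Nlrx1-/- hosts, and leaving out both fitted arrays high in lymph node stroma markers gave 98, 7 and 2. The cause was not tested. With the replicate number as a block 295 features were called over both hosts, 251 of them shared, 13 in WT and 31 in Nlrx1-/- hosts, and Nlrx1 differed by 3.39 (limma, adjusted p = 0.00628).

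The pools, 1 parental array of Nlrx1-/- hosts in the fit, and lines that differ by more than NLRX1 limit these values. Low signals near the negative controls give bounds.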
